A study of Bos taurus with 96 samples.

Results

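The genes described here are 9 members of the insulin-like growth factor 1 (IGF1) axis, out of 10680 named genes with a tested probe on a bovine expression array: the hormone IGF1, its receptor IGF1R, the growth hormone receptor GHR and 6 binding proteins, IGFBP2 to IGFBP7. They were chosen by name, and 18 of the 34227 tested probes belong to them through a RefSeq accession in the scanner output or through the probe tables of the study. Each gene is described by its brightest tested probe. IGF1R is named through the study's tables alone, and IGFBP5 is a gene that the study picked out on these same samples.

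Growth hormone acts through GHR, a cytokine receptor that works through the kinase JAK2 and the STAT5 factors, and in many tissues it raises the transcription of IGF1. IGF1 binds IGF1R, a receptor tyrosine kinase that signals through insulin receptor substrates and PI3-kinase and promotes growth of muscle and of fat cell precursors. Most IGF outside cells is held by the binding proteins, which prolong its life in the circulation and either limit or aid its access to the receptor, whereas IGFBP7 binds it only weakly.

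Total RNA from 96 tissue samples of cattle (Bos taurus) was hybridised, 1 sample per array, to a one colour Agilent array. Fat was taken from beneath the skin of the rump (subcutaneous, SC), from between muscles (intermuscular, Inter), from around the kidney (Kid), from the omentum (Omen) and, by dissection, from within the longissimus dorsi muscle (intramuscular, IMF), with 12 arrays each, 4 from Angus, 4 from Hereford and 4 from Wagyu x Angus steers, all raised on pasture after weaning. Longissimus dorsi muscle with its fat in place (LD) had 24 arrays from pasture-raised animals, 8 per breed, and 12 from animals given supplement after weaning, 4 per breed. The labels give 259 days in a feedlot for every sample, and the series text an age of 26 months for the steers. According to the methods part of the LD samples came from an earlier kill, which the labels do not mark, and to which that age need not apply. The steers behind a depot are partly the same as those behind another, but the labels do not identify them, so arrays of different depots were compared as independent samples. Within a depot the series describes the arrays as individual replicates. No label ties an array to an animal, so the p-values measure the spread between these samples.

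Between 80.9% and 99.65% of the tested probes lay well above background on an array, with medians of 89.59% for LD on pasture and 91.125% for SC against 95.815% to 96.62% for the other depots. Levels are log2 signals minus the 75th percentile of the array, so that 0 is the 75th percentile, and they are compared between tissues for a probe but not between probes. Myofibre markers (10 genes, such as MYH7, ACTA1 and CKM) had a summed level of 9.95 to 11.47 on the IMF arrays, with 10 of 10 above background, close to the 11.9 to 12.4 of LD on pasture and far from the 0.26 to 1.23 of SC. Single Inter and Kid arrays also carried this signal, up to 9.68 and 4.15, whereas Omen reached 0.79. Adipocyte markers (6 genes, such as ADIPOQ and PLIN1) ran from 9.32 to 9.95 in SC, 7.38 to 9.34 in IMF and 2.27 to 6.57 in LD. All IMF arrays were scanned on 1 day together with 1 SC array, and all Inter arrays on a day with no SC array. Of the Omen arrays 10 were scanned on the day of IMF and 2 on the day of Inter.

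Of the fat depots SC had the highest mean level of IGF1 and of the binding proteins IGFBP2 to IGFBP6, and it was muscle, followed by IMF, that had the highest IGF1R. Relative to SC, 8 of the 9 genes differed in IMF (1 higher, 7 lower), where 64.2% of all tested probes did (31.2% higher, 33% lower). In Inter 4 were lower and 0 higher (48.8% of probes called, 27.2% lower and 21.6% higher), in Kid 5 and 0 (41.7%, 22.2% lower and 19.4% higher) and in Omen 3 and 0 (45.7%, 25.2% lower and 20.5% higher). Over the 5 depots together 6 of the 9 genes differed by the moderated F test, where 87.2% of probes did; IGF1, IGFBP2 and IGFBP7 were the others. Which genes passed moved with the setting: IGF1 passed when arrays were centred on the mean (adjusted p = 0.0218), IGFBP2 with quantile scaling (0.0227), normexp (0.000467) or scan day as a block (0.00302), and IGFBP7 with quantile scaling (0.00261), while GHR was lost with slide as a random block (0.0596). All 9 differed between LD on pasture and SC (1 higher, 8 lower), where 82.9% of probes did (42.7% higher, 40.2% lower). A count of 8 or 9 of 9 is thus read against a background in which most probes differed, and the median difference from SC of the 9 genes was -0.56 in IMF, -0.42 in Inter, -0.46 in Kid, -0.15 in Omen and -1.33 in LD, beside medians of all tested probes of 0.00, -0.05, -0.01, -0.03 and 0.05. These calls are adjusted p-values from limma, by Benjamini-Hochberg over the 34227 probes, with a threshold of 0.05. The comparisons share the 12 SC arrays and are not independent of each other.

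**Figure D1:**
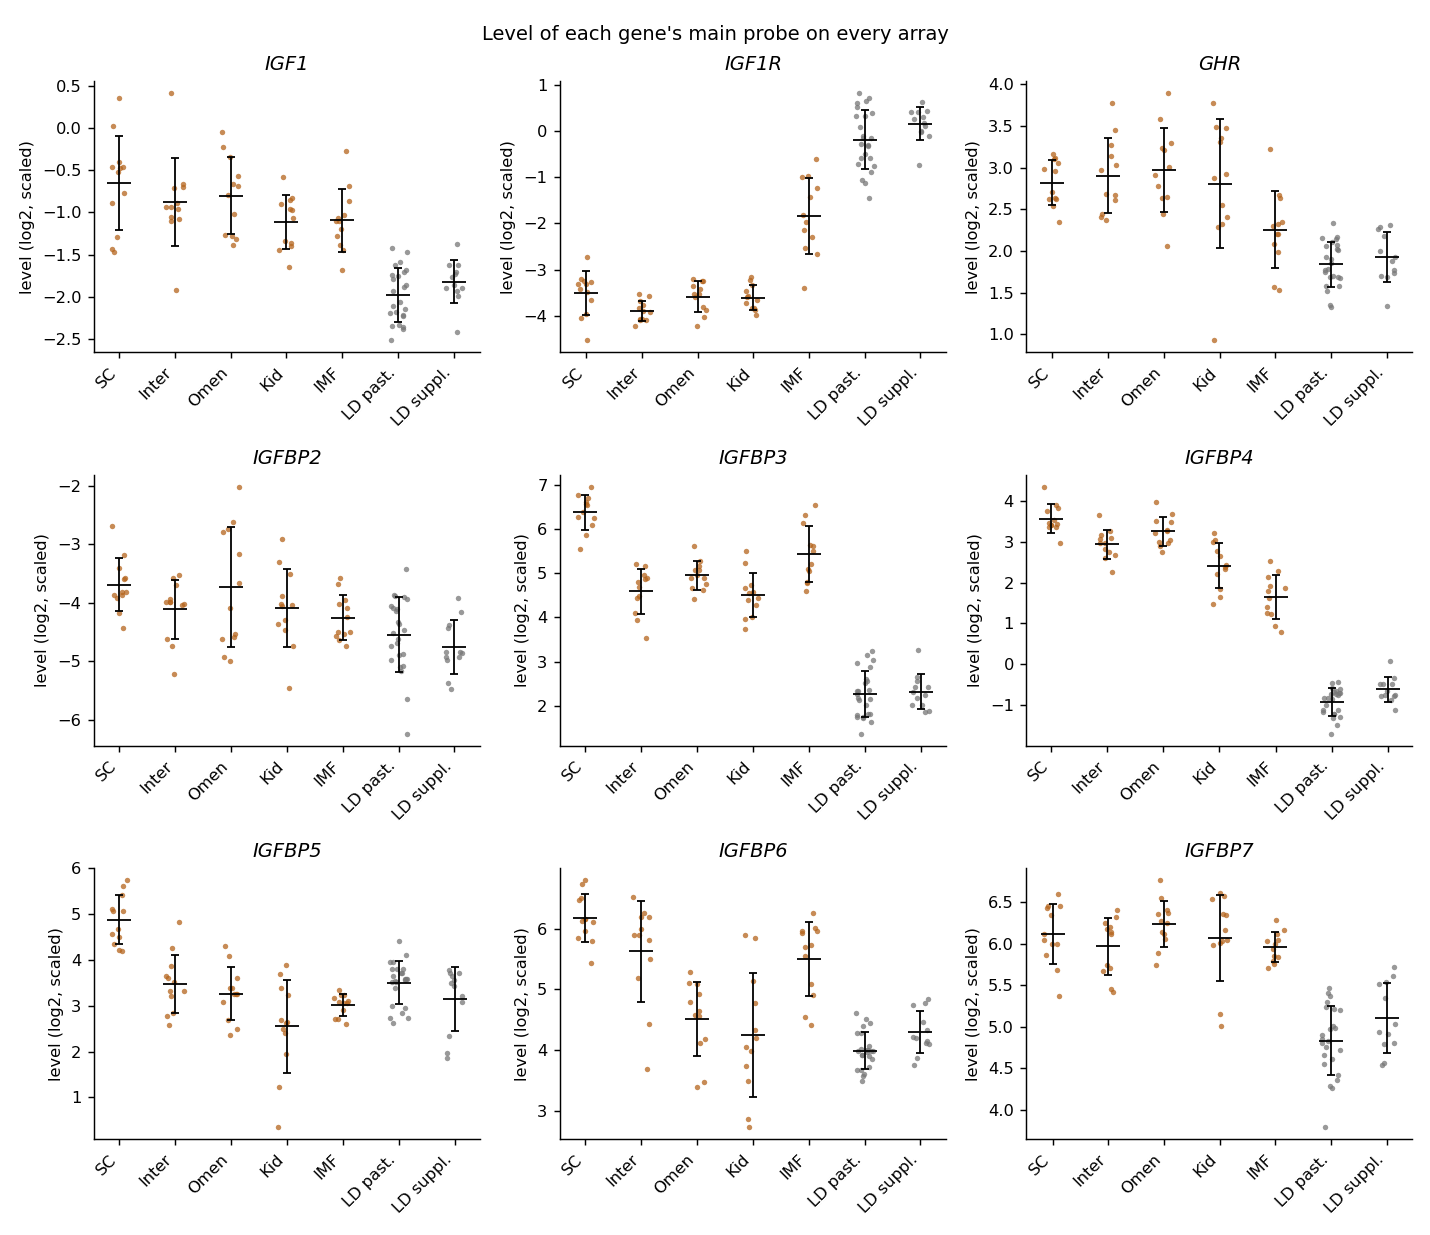
Level of each gene's main probe on every array (log2 signal minus the 75th percentile of the array), by tissue, with fat depots in brown and LD in grey; the long bar is the mean and the whiskers are 1 SD. IGF1R is highest in LD (mean -0.19) and second in IMF (-1.84), IGFBP5 is highest in SC (4.88), and IGFBP7 differs little among fat depots (5.97 to 6.24) but is lower in LD (4.83).

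IGF1, the ligand of the axis, was detected on all arrays and differed little among fat depots. Its level lay between -1.47 and 0.36 on the 12 SC arrays (median -0.50), between -1.92 and 0.41 in Inter (median -0.93) and between -1.38 and -0.05 in Omen (median -0.74). It lay between -1.69 and -0.27 in IMF (median -1.10) and between -1.64 and -0.58 in Kid (median -1.02). All 5 ranges overlapped, and the moderated F test over the 5 depots with breed as a covariate missed the threshold (limma, adjusted p = 0.0625).

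IMF and Kid fell just past the threshold against SC. IGF1 was lower by 0.44 in IMF (difference -0.44 ± 0.19 SE, adjusted p = 0.0402) and by 0.46 in Kid (difference -0.46 ± 0.18, adjusted p = 0.0416), while Inter (-0.23 ± 0.21, adjusted p = 0.391) and Omen (-0.15 ± 0.20, adjusted p = 0.561) were not past it. Both calls were lost on leaving out any of 14 of the 24 arrays for IMF (adjusted p up to 0.0769) or any of 12 for Kid (up to 0.0761), and with slide as a random block (0.0575 and 0.0754). The 2 other IGF1 probes gave -0.36 and -0.21 in IMF and 0.07 and 0.01 in Kid, none past the threshold. Within the day that holds 5 Kid and 11 SC arrays the main probe gave -0.31.

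Muscle had clearly less IGF1 than any depot. On the 24 LD arrays on pasture its level lay between -2.51 and -1.42 (median -1.99), and 22 of them were below the lowest SC array. The difference from SC was -1.33 ± 0.14 (2.51-fold lower, limma adjusted p = 7.98e-11), and all 3 probes were lower (-0.62 to -1.91). The nearest depot above LD was Kid, at 0.87 ± 0.11 (adjusted p = 7.7e-09).

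In bulk tissue a lower level may mean fewer cells of the type that transcribes the gene or less RNA per cell, and these cannot be told apart here. The median summed level of stromal markers (6 genes, such as PDGFRA and DCN, 6 of 6 above background) was 8.70 in SC, 8.18 in Inter, 7.98 in IMF, 7.77 in Omen, 6.91 in Kid and 6.23 in LD. SC was highest and LD lowest in the medians of both IGF1 and these markers, but the other depots stood in another order. Macrophage markers (5 genes with a probe, 5 of 5 above background) had medians of 6.56 in Inter, 6.28 in Kid, 5.66 in SC, 5.58 in Omen, 4.07 in IMF and 2.64 in LD, so that Kid stood above SC while its IGF1 was lower. The part of these cells in the differences was not tested.

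The 2 receptors ran in opposite directions. IGF1R, the receptor of the ligand, lay between -4.52 and -2.72 on the SC arrays (median -3.37), between -3.40 and -0.61 in IMF (median -1.89) and between -1.46 and 0.81 in LD on pasture (median -0.22). Inter (-4.21 to -3.51), Kid (-3.97 to -3.16) and Omen (-4.21 to -3.20) lay within or near the range of SC. Of the 12 IMF arrays 11 were above every SC array, and all 24 LD arrays were (39.1% of all probes did not overlap between LD and SC).

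IGF1R was 3.18-fold higher in IMF than in SC (1.67 ± 0.26, limma adjusted p = 5.37e-06) and 9.95-fold higher in LD than in SC (3.31 ± 0.20, adjusted p = 1.08e-17). IMF was in turn below LD (-1.64 ± 0.24, adjusted p = 1.31e-07), and 7 IMF arrays lay below all 24 LD arrays. IMF was 4.14-fold above Inter (adjusted p = 1.16e-07), with no overlap, where 62.7% of probes were called and 8.48% did not overlap. It was also 3.39-fold above Kid (55.8% of probes called) and 3.34-fold above Omen (56.2%). Inter was slightly lower than SC (-0.38 ± 0.15, adjusted p = 0.0352), a call lost on leaving out any of 11 single arrays and with slide as a random block (adjusted p = 0.0833), and of the opposite sign with scan day as a block over all 96 arrays (0.25, adjusted p = 0.415). Kid (-0.09) and Omen (-0.07) were not past the threshold against SC, but were with normexp (-0.43 and -0.37, adjusted p = 0.000894 and 0.00333).

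The myofibre markers moved with IGF1R among the IMF arrays. The lowest IMF level, -3.40, stood on an array with a summed myofibre level of 9.95, and the highest, -0.61, on one at 11.40. A myofibre signal did not always come with IGF1R: the Inter array with the highest summed myofibre level, 9.68 (Wagyu x Angus, slide 5, position 2), had the lowest IGF1R level of its depot, -4.21. The part of muscle RNA in the level of IMF was not tested.

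**Figure D2:**
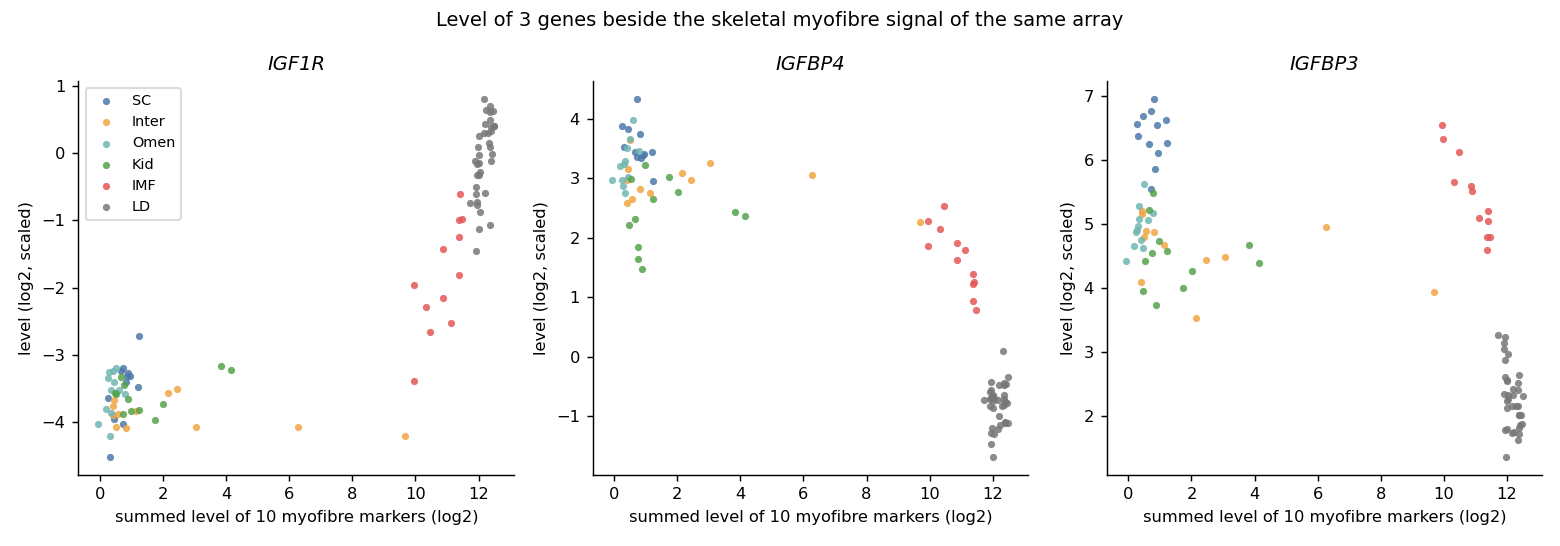
Level of IGF1R, IGFBP4 and IGFBP3 (log2 signal minus the 75th percentile of the array) against the summed level of 10 skeletal myofibre markers on the same array, 1 point per array, coloured by tissue. The mean of the IMF arrays (9.95 to 11.47 on the horizontal axis) lies between those of the other depots and LD for IGF1R (-1.84) and IGFBP4 (1.65), with single arrays overlapping SC, Kid, Omen and LD for IGF1R and Kid and Inter for IGFBP4, and IGFBP3 in IMF (4.59 to 6.54) overlaps SC.

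GHR, the receptor of growth hormone, was lower in IMF and LD, where IGF1R was higher. It lay between 2.35 and 3.16 in SC (median 2.83), between 1.53 and 3.22 in IMF (median 2.25) and between 1.33 and 2.34 in LD on pasture (median 1.82). No LD array reached the lowest SC array, where 39.1% of all probes did not overlap, and 8 of the 12 IMF arrays were below it.

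The difference from SC was -0.56 ± 0.15 in IMF (1.48-fold lower, limma adjusted p = 0.00233) and -0.98 ± 0.10 in LD (1.97-fold lower, adjusted p = 7.11e-12). Within Wagyu x Angus the difference of IMF from SC was -0.01 (adjusted p = 0.978). Over all breeds with scan day as a block, which rests on 1 SC array, that difference was -0.28 and the call was lost. IMF stayed above LD (0.42 ± 0.12, adjusted p = 0.0022), a difference not past the threshold with slide as a random block (adjusted p = 0.0523). With scan day as a block this difference was 0.28 (adjusted p = 0.0936), and 0.23 on all 96 arrays (adjusted p = 0.248). Within Hereford it was 0.06 (adjusted p = 0.812). Inter (2.90), Omen (2.97) and Kid (2.81) had means near the 2.82 of SC, with differences of 0.08 ± 0.15, 0.16 ± 0.16 and -0.01 ± 0.23, none past the threshold. Kid was the most spread, from 0.93 to 3.77. The lowest of these was a Hereford array, slide 21 position 1, which also had the lowest IGFBP5 of its depot, the highest summed macrophage level (7.81) and the lowest median correlation with the other Kid arrays (0.948). Without it GHR in Kid against SC was 0.16 (adjusted p = 0.469).

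IGFBP3, the main carrier of IGF in blood, had its highest mean in SC and its lowest in LD. Its level lay between 5.55 and 6.95 in SC (median 6.46), between 4.59 and 6.54 in IMF (median 5.36) and between 4.43 and 5.62 in Omen (median 4.93). Inter (3.53 to 5.21, median 4.73) and Kid (3.74 to 5.49, median 4.49) had lower medians, and LD on pasture lay between 1.37 and 3.24 (median 2.23). No Inter, Kid or LD array reached the lowest SC array (3.75%, 3.52% and 39.1% of all probes did not overlap), and 11 of 12 Omen arrays were below it.

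Against SC the differences of IGFBP3 were -0.94 ± 0.21 in IMF, -1.42 ± 0.15 in Omen, -1.79 ± 0.18 in Inter and -1.87 ± 0.18 in Kid (limma adjusted p = 0.000377, 5.03e-08, 6.63e-08 and 2.54e-08). LD was 17.2-fold lower than SC (-4.11 ± 0.17, adjusted p = 3.48e-23). The steps from SC to IMF, from IMF to Omen (0.49 ± 0.20, adjusted p = 0.0387) and from Kid to LD were past the threshold, whereas Omen and Inter, and Inter and Kid, were not separated beyond their spread. The step from IMF to Omen passed by 1 of the 3 IGFBP3 probes, while the other 2 missed the threshold (Omen minus IMF of -0.29 and -0.47, adjusted p = 0.19 and 0.0505). The other 2 tested IGFBP3 probes were lower than SC in each of these tissues too, all past the threshold.

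IGFBP4, which binds IGF tightly and limits its action until proteases such as PAPPA cleave it, had the largest difference between LD and SC of the 9 main probes. It lay between 2.96 and 4.34 in SC (median 3.44), between 0.79 and 2.53 in IMF (median 1.71) and between -1.69 and -0.43 in LD on pasture (median -0.82). The SC, IMF and LD ranges did not overlap; 14.9% of all probes did not overlap between IMF and SC, 39.1% between LD and SC and 19.5% between IMF and LD.

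IGFBP4 was 3.76-fold lower in IMF than in SC (-1.91 ± 0.18, limma adjusted p = 2.22e-09) and 22.3-fold lower in LD (-4.48 ± 0.12, adjusted p = 3.54e-29). Kid was lower by 1.15 (difference -1.15 ± 0.18, adjusted p = 2.49e-05) and Inter by 0.62 (-0.62 ± 0.14, adjusted p = 0.000807). Omen missed the threshold (-0.31 ± 0.14, adjusted p = 0.0752), but passed it without any of 3 arrays: Omen Angus, slide 11 position 3 (0.0486), Omen Wagyu x Angus, slide 11 position 4 (0.0233), or SC Hereford, slide 17 position 2 (0.0329). IMF lay below all 12 Omen arrays (3.03-fold, adjusted p = 8.4e-08), where 8.44% of probes did not overlap. Within IMF the lowest level, 0.79, stood on the array with the highest summed myofibre level, 11.47, and the highest, 2.53, on one at 10.47; the part of muscle RNA was not tested.

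A brighter IGFBP4 probe outside the tested set gave smaller differences in IMF, Inter, Kid and LD, but a larger one in Omen. Its mean was 5.21 in SC, 3.79 in IMF and 3.53 in LD on pasture, so LD was 1.69 below SC and IMF 0.26 above LD. By this probe Omen was past the threshold below SC (-0.51 ± 0.10, limma over all 43653 probes, adjusted p = 0.000257). The tested probe and this one thus had the same direction against SC but unequal size, and 22.3-fold is the value of 1 probe.

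IGFBP5, a binding protein of muscle, bone and connective tissue, set SC apart from every other tissue. It lay between 4.19 and 5.74 in SC (median 4.87), between 2.60 and 3.35 in IMF (median 3.07) and between 0.36 and 3.89 in Kid (median 2.63). Inter (2.59 to 4.82), Omen (2.36 to 4.29) and LD on pasture (2.63 to 4.41) overlapped SC by 2, 1 and 1 of their arrays.

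The differences from SC were -2.33 ± 0.32 in Kid (5.02-fold lower, limma adjusted p = 2.92e-06), -1.86 ± 0.16 in IMF (3.62-fold, adjusted p = 8.18e-10), -1.62 ± 0.22 in Omen (3.06-fold, adjusted p = 2.41e-06), -1.40 ± 0.23 in Inter (2.63-fold, adjusted p = 2.83e-05) and -1.37 ± 0.17 in LD (2.59-fold, adjusted p = 2.16e-09). Kid and IMF did not overlap SC (3.52% and 14.9% of all probes did not). With scan day as a block, which rests on 1 SC array for Omen, the Omen difference was -1.87 and its call was lost. Without the Hereford array named under GHR the Kid difference was -2.13 (adjusted p = 1.02e-06). The other 3 IGFBP5 probes gave differences of the same direction past the threshold, from -1.77 to -3.07. Below SC, the means of LD (3.50), Inter (3.48), Omen (3.26), IMF (3.02) and Kid (2.55) followed each other without a step past the threshold.

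IGFBP6, which prefers IGF2 to IGF1, was high in SC, Inter and IMF and low in the abdominal depots. It lay between 5.43 and 6.80 in SC (median 6.14), between 3.69 and 6.51 in Inter (median 5.90) and between 4.41 and 6.25 in IMF (median 5.71). Omen lay between 3.38 and 5.28 (median 4.61), Kid between 2.73 and 5.89 (median 4.12) and LD on pasture between 3.48 and 4.62 (median 3.98). All 12 Omen and all 24 LD arrays were below every SC array (3.97% and 39.1% of all probes did not overlap). The medians of the stromal markers given above ran in the same order as those of IGFBP6, and the lowest IGFBP6 level, 2.73 in Kid, stood on the Kid array with the lowest stromal sum, 6.44; the part of stromal cells was not tested.

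The differences of IGFBP6 from SC were -1.66 ± 0.20 in Omen (3.17-fold lower, limma adjusted p = 6.29e-07), -1.92 ± 0.30 in Kid (3.79-fold, adjusted p = 2.03e-05) and -2.18 ± 0.12 in LD (4.54-fold, adjusted p = 2.19e-19). With scan day as a block, which rests on 1 SC array for Omen, the Omen difference was -1.24 and its call was lost. IMF was lower by less (-0.67 ± 0.20, adjusted p = 0.0057), and its second probe missed the threshold (-0.37, adjusted p = 0.0914). Inter did not pass (-0.55 ± 0.25, adjusted p = 0.077), except without 1 Hereford Inter array, slide 10 position 2 (adjusted p = 0.0448). The step from IMF down to Omen was past the threshold (0.99 ± 0.24, adjusted p = 0.00114), as was that from Inter to Kid (-1.37 ± 0.36, adjusted p = 0.0147), where 15.4% of probes were called. On the 1 slide that holds both depots, with 2 arrays each, Kid was above Inter (0.72), while on the scan day they share it was below (-1.43, 6 against 12 arrays).

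IGFBP2, a binding protein of preadipocytes and many other tissues, was dim. It lay between -4.43 and -2.69 in SC (median -3.81), between -4.74 and -3.58 in IMF (median -4.37) and between -6.24 and -3.42 in LD on pasture, where 22 of 24 arrays were well above background. Omen was the most spread of the depots, from -5.00 to -2.01. IMF (-0.56 ± 0.17, limma adjusted p = 0.0051) and LD (-0.85 ± 0.20, adjusted p = 0.000223) were below SC with overlap, though with normexp the LD difference was -0.17 (adjusted p = 0.339), and no pair of neighbours in the order of means was past the threshold.

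A second IGFBP2 probe, outside the tested set, was well above background on all SC arrays (mean -3.20) but on 1 of 24 LD arrays on pasture and 0 of 12 on supplement. No size is given for its difference from LD, which was mostly not well above background. It put Kid below SC (-2.03 ± 0.37, limma over all 43653 probes, adjusted p = 0.000122), where the tested probe gave -0.39 and did not pass, except with normexp (-0.58, adjusted p = 0.00189) or scan day as a block (-0.76, adjusted p = 0.0052). Inter against SC missed the threshold by the tested probe (-0.42 ± 0.19, adjusted p = 0.0704) and by the second probe (-0.65 ± 0.39, adjusted p = 0.179). By the tested probe it passed with normexp (-0.67, adjusted p = 6.11e-05), with scan day as a block on all 96 arrays (-1.13, adjusted p = 0.000532), and without any of 3 single arrays, Inter Angus, slide 4 position 4 (0.0447) or slide 5 position 4 (0.0478), or SC Angus, slide 19 position 1 (0.0347).

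IGFBP7, the weak binder and a protein of vessel walls, had close means in all depots. Means ran from 5.97 in IMF and Inter to 6.24 in Omen, the IMF arrays were the closest together (5.71 to 6.29), and no depot passed the threshold against SC (differences of -0.15 to 0.13, limma adjusted p = 0.264 to 0.858). Omen was above IMF by both probes (0.28 and 0.40, adjusted p = 0.0192 and 0.00319), and above SC with quantile scaling (0.37, adjusted p = 0.0121). With arrays centred on the mean IMF was below SC (-0.28, adjusted p = 0.0341). LD on pasture lay between 3.79 and 5.47 (median 4.84), below all 12 IMF arrays (19.5% of all probes did not overlap between these 2 tissues), and was 2.43-fold lower than SC (-1.28 ± 0.14, adjusted p = 1.25e-10). Endothelial markers (5 genes with a probe) were likewise higher in SC (4.45 to 5.22) than in LD (2.34 to 3.68), with 5 of 5 above background in both; their part in the difference was not tested.

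**Figure D3:**
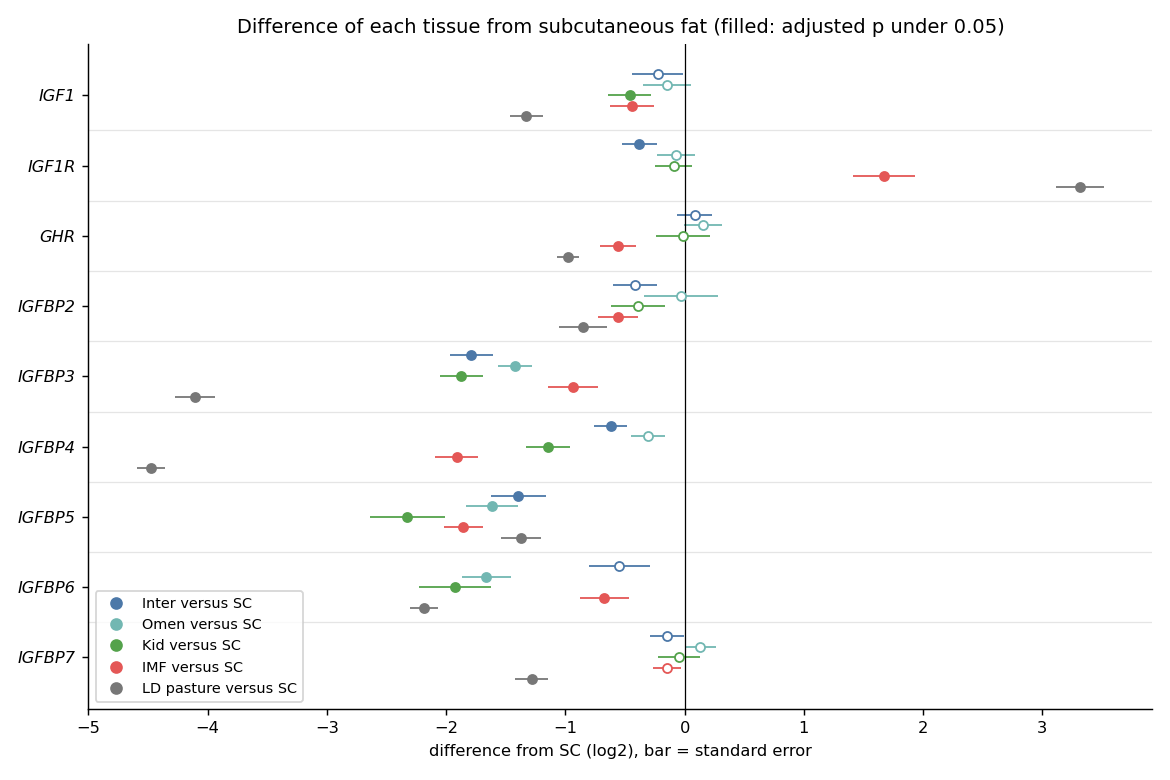
Difference of each tissue from SC for each gene (log2, mean of 12 arrays, or 24 for LD on pasture, minus mean of 12 SC arrays); bars are standard errors and filled points have an adjusted p under 0.05. IGF1R in IMF (1.67) and LD (3.31) lies to the right of 0. IGF1 and IGFBP2 to IGFBP6 lie to the left in all 5 tissues, with filled points in all 5 for IGFBP3 and IGFBP5 alone. IGFBP7 has a filled point only in LD (-1.28).

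In pairs of tissues without SC, fewer genes were called among Inter, Kid and Omen than against IMF or LD. Of the 9 genes 3 were higher and 2 lower in Inter than in IMF (30% and 32.8% of probes), 1 higher and 3 lower in Kid (27.4% and 28.4%) and 3 higher and 3 lower in Omen (28.4% and 27.8%). IGFBP4 was higher and IGF1R and IGFBP3 lower than IMF in each of the 3. Between Inter, Kid and Omen single genes passed: IGFBP6 was lower in Kid than in Inter (7.84% of probes lower, 7.58% higher) and in Omen than in Inter (-1.11, limma adjusted p = 0.0124; 13.6% of probes called, 5.87% lower and 7.69% higher), and IGFBP4 was higher in Omen than in Kid (0.84, adjusted p = 0.00542; 12.1% called, 5.78% higher and 6.34% lower).

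LD on pasture had 1 gene higher and 7 lower than Inter (83.6% of probes called, 43.9% higher and 39.6% lower), 2 higher and 5 lower than Kid (79.8%, 41% higher and 38.7% lower) and 1 higher and 7 lower than Omen (81.9%, 41.7% higher and 40.2% lower). IGF1R was higher in LD than in each, by 3.69, 3.41 and 3.39, and IGFBP5 was the second gene above Kid (0.95, limma adjusted p = 0.000421). IGFBP5 in LD was not past the threshold against Inter (0.02) or Omen (0.24).

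Marbling fat was also compared directly with LD on pasture, since IMF was dissected out of that muscle. According to the methods part of the LD samples came from an earlier kill that the labels do not mark. Not all LD arrays are thus the muscle around these IMF samples, and kill and tissue cannot be told apart for them. Of the 9 genes 8 differed (6 higher in IMF, 2 lower), where 75.3% of probes did (36% higher, 39.3% lower). IGFBP3 was 9-fold (3.17 ± 0.19, limma adjusted p = 1.47e-16), IGFBP4 5.92-fold (2.57 ± 0.14, adjusted p = 2.57e-17) and IGFBP7 2.19-fold higher (1.13 ± 0.13, adjusted p = 3.57e-10), each without overlap, where 19.5% of all probes did not overlap. IGFBP6 was 2.85-fold (1.51 ± 0.15, adjusted p = 1.8e-11) and IGF1 1.84-fold higher (0.88 ± 0.12, adjusted p = 1.86e-08), with 10 of 12 IMF arrays above all LD arrays for each. IGFBP5 was lower in IMF (-0.48 ± 0.14, adjusted p = 0.00242), but only 2 of its 4 probes passed, 1 of the others gave 0.03, and slide as a random block ended the call (adjusted p = 0.0594). The call was also lost with quantile scaling (-0.04, adjusted p = 0.795) and with scan day as a block on all 96 arrays (-0.44, adjusted p = 0.11). IGFBP2 was not past the threshold (0.29 ± 0.20, adjusted p = 0.176), but was higher in IMF with scan day as a block (0.69, adjusted p = 0.00426; 0.79 on all 96 arrays, adjusted p = 0.00115) and in the value table (0.89, adjusted p = 0.000244), and lower with normexp (-0.41, adjusted p = 0.0085). The markers of other cell types moved with these differences. The median summed level of smooth muscle and pericyte markers (5 of 5 above background) was 7.79 in IMF (6.28 to 9.72), against 4.90 in LD (4.13 to 6.39) and 4.31 in SC (3.74 to 8.17), and the adipocyte, stromal, endothelial and macrophage sums were higher in IMF than in LD too (medians of 8.66, 7.98, 4.15 and 4.07 against 4.44, 6.23, 2.92 and 2.64). Their part was not tested.

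The scan day limits the comparisons of IMF and Omen with SC, and Inter shared no scan day with SC. Within the day that holds IMF and SC (12 IMF arrays against 1 SC array), 7 of the 8 called genes kept their sign, with -2.08 for IGFBP5, -1.75 for IGFBP4 and 1.43 for IGF1R, whereas IGFBP2 turned to 0.17. The 10 Omen arrays of that day stand against the same SC array, and the 3 genes called for Omen kept their sign. That SC array (Angus, slide 19 position 1) had an IGF1 level of 0.36, the highest of SC and apart from the other Angus SC arrays, the next of which was at -0.46. With scan day as a block, which rests on that array, 3 of 9 genes passed (IGF1, IGFBP4 and IGFBP5), and over all 96 arrays 5 did (IGF1R, GHR, IGFBP3, IGFBP4 and IGFBP5). LD and SC shared 2 scan days, and all 9 genes kept their sign in both. Of IMF and LD, all 8 called genes kept their sign within the day they share.

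Over the 60 fat arrays the levels of IGFBP4 and IGF1R ran against each other most (Pearson r = -0.69), and IGFBP3 and IGFBP5 most together (r = 0.61), followed by IGFBP4 and IGFBP5 (r = 0.59). The correlations of IGF1 with the others ran from -0.12 to 0.35. These are descriptions over arrays that share depots and steers.

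With depot as a covariate, 3 of the 9 genes differed between breeds by the moderated F test over the 60 fat arrays, IGFBP5 (limma adjusted p = 0.00401), IGF1R (0.00521) and IGFBP7 (0.0281), where 3.2% of all tested probes did. Breed varied between steers only, and arrays of different depots partly share steers. The 60 arrays are thus not independent for breed, and these p-values measure the spread between arrays rather than between animals. None of the 9 had a depot difference that depended on breed: limma called 0 of 34227 probes (0%), with 2512 at an unadjusted p under 0.05, and the lowest adjusted p of a member was 0.769.

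IGF1R was lowest in Wagyu x Angus steers in each of the 5 depots. The breed means over depots were -3.64 for Wagyu x Angus, -3.12 for Angus and -3.09 for Hereford. Wagyu x Angus was below Angus by 0.52 (difference -0.52 ± 0.13, adjusted p = 0.0245; 0.754% of probes called) and below Hereford by 0.55 (-0.55 ± 0.13, adjusted p = 0.00583; 3.5% called). The widest gap was in IMF, where the 4 Wagyu x Angus arrays lay between -3.40 and -1.81, the Angus arrays between -2.66 and -0.98 and the Hereford arrays between -2.15 and -0.61, with overlap. Summed myofibre levels of these arrays ran from 9.95 to 11.38 in Wagyu x Angus, 10.47 to 11.47 in Angus and 9.96 to 11.4 in Hereford. Smooth muscle and pericyte sums ran from 6.28 to 7.2, from 7.71 to 8.58 and from 7.89 to 9.72. The part of these cells was not tested. Within single depots no member passed the threshold, and with normexp background correction the IGF1R call was lost (adjusted p = 0.134).

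IGFBP5 was lowest in Hereford. Its breed means over depots were 2.99 for Hereford, 3.48 for Angus and 3.84 for Wagyu x Angus, and Wagyu x Angus was 1.81-fold above Hereford (0.86 ± 0.17, limma adjusted p = 0.00114). All 4 IGFBP5 probes passed in this contrast (0.78 to 0.87). In Omen the 4 Hereford arrays (2.36 to 3.08) lay below the 4 Wagyu x Angus arrays (3.26 to 4.29), and in SC (4.22 to 4.57 against 4.66 to 5.74) they did too (4.84% and 6.99% of all probes did not overlap between these arrays), whereas in the other 3 depots the breeds overlapped: IMF (2.70 to 3.16 against 2.60 to 3.24), Inter (2.59 to 3.61 against 3.22 to 4.82) and Kid (0.36 to 3.39 against 2.64 to 3.89). Hereford against Angus was not past the threshold (-0.50 ± 0.17, adjusted p = 0.217).

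IGFBP7 was lower in Hereford than in Angus (-0.39 ± 0.10, limma adjusted p = 0.042; 0.567% of probes called). The gap was widest in Kid (5.01 to 6.01 against 6.35 to 6.58, difference -0.92) and Inter (5.42 to 5.75 against 6.12 to 6.41, difference -0.68), where the 4 arrays of each breed did not overlap (1.89% and 2.21% of all probes did not in these depots). The breeds overlapped in SC, Omen and IMF. Neither Kid nor Inter passed alone, and a dependence of the gap on depot was not past the threshold. Leaving out any of 25 of the 60 arrays ended this call, and the F test was lost without SC Hereford, slide 15 position 3 (adjusted p = 0.051), or Kid Hereford, slide 22 position 4 (0.0536). The second IGFBP7 probe did not pass the F test (adjusted p = 0.36).

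**Figure D4:**
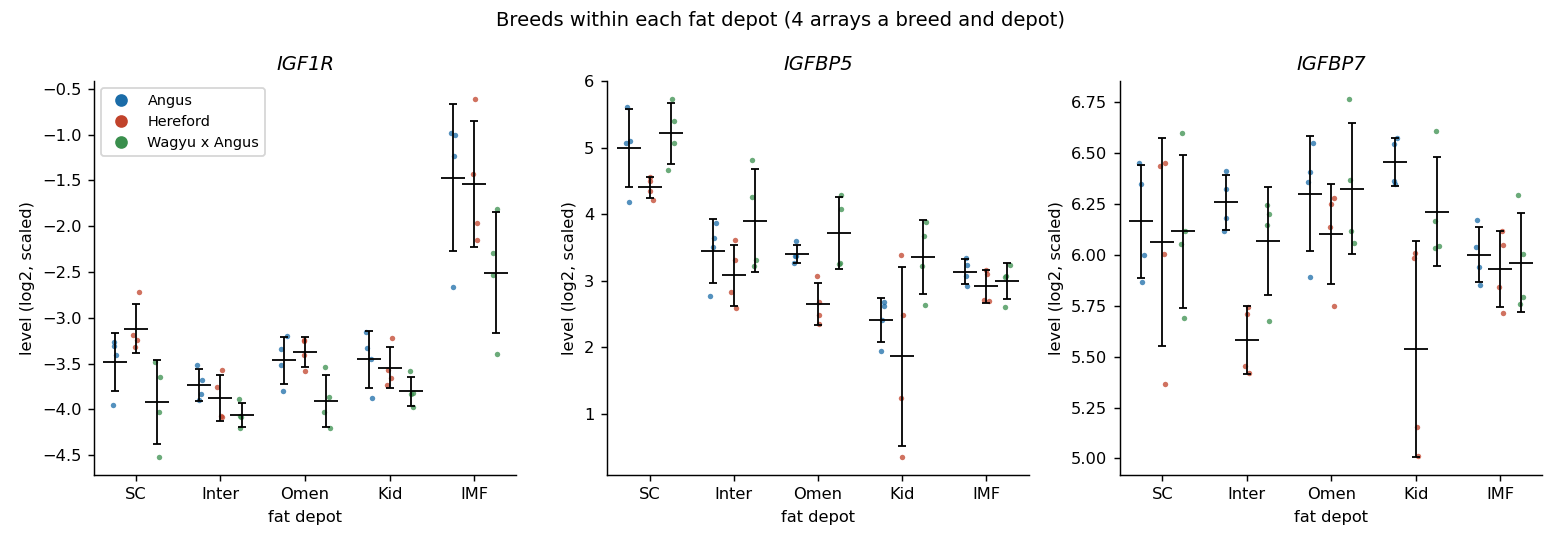
Level of IGF1R, IGFBP5 and IGFBP7 (log2 signal minus the 75th percentile of the array) on every fat array by depot and breed, 4 arrays a breed and depot; the long bar is the mean and the whiskers are 1 SD. Wagyu x Angus has the lowest mean of IGF1R in each depot, most clearly in IMF (-2.51 against -1.47 and -1.54), and Hereford the lowest mean of IGFBP5.

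In LD none of the 9 genes passed the threshold between supplement and pasture with breed as a covariate, where limma called 11.2% of all tested probes (5.65% higher, 5.6% lower); 2 of the 9 had an unadjusted p under 0.05. The closest were IGFBP4 (0.31 ± 0.11, adjusted p = 0.0662) and IGFBP6 (0.31 ± 0.11, adjusted p = 0.0749), both higher on supplement with overlap: IGFBP4 lay between -1.12 and 0.09 on supplement and between -1.69 and -0.43 on pasture, and IGFBP6 between 3.76 and 4.84 and between 3.48 and 4.62. IGFBP4 passed without any of 3 single arrays, Wagyu x Angus on supplement, slide 6 position 3 (adjusted p = 0.0495), Wagyu x Angus on pasture, slide 13 position 1 (0.0476), or Angus on pasture, slide 23 position 2 (0.0461), and IGFBP6 without Angus on supplement, slide 1 position 3 (0.0299), or Angus on pasture, slide 2 position 3 (0.0421). IGF1R gave 0.34 ± 0.18 (adjusted p = 0.231) and IGF1 0.16 ± 0.09 (adjusted p = 0.261).

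Each LD slide held 1 diet, so slide entered as a random block, which left 0 of the 9 genes called and 1 of 34227 probes. According to the methods the earlier kill held animals of both diets. The labels do not mark it, so kill could not be told apart from diet. Adipocyte markers differed beside diet: their summed level ran from 2.2 to 3.97 on supplement and from 2.27 to 6.57 on pasture. Its part was not tested.

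The gap of IGF1 between the diets had unequal values in the 3 breeds, but its dependence on breed was not past the threshold. In Angus the 4 supplement arrays lay between -1.89 and -1.62 and the 8 pasture arrays between -2.51 and -1.93, without overlap, a gap of 0.53 in the means; 5.76% of all probes did not overlap here. The summed adipocyte level of these arrays did not overlap either, from 2.54 to 3.60 on supplement and from 4.42 to 6.30 on pasture, and its part was not tested. The other 2 IGF1 probes gave 0.94 and -0.07 for this gap. In Hereford (-0.05) and Wagyu x Angus (0.00) supplement and pasture had nearly equal means. The interaction of diet and breed gave an adjusted p of 0.0521 for IGF1 (limma) and called 0 of the 9 genes, where 16.2% of probes passed and 4 of the 9 genes had an unadjusted p under 0.05. For IGF1 it passed without any of 7 single arrays (adjusted p down to 0.0306), and for GHR without 1 Wagyu x Angus array on pasture, slide 20 position 1 (0.047). The interaction also passed for IGF1 with quantile scaling (0.0488), centred on the mean (0.0465) and with scan day as a block (0.0201). With that block it passed for IGF1R (0.00682) and GHR (0.0281) too. In Angus alone, a comparison added after the data were seen, IGF1 was past the threshold by its main probe (adjusted p = 0.028).

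**Figure D5:**
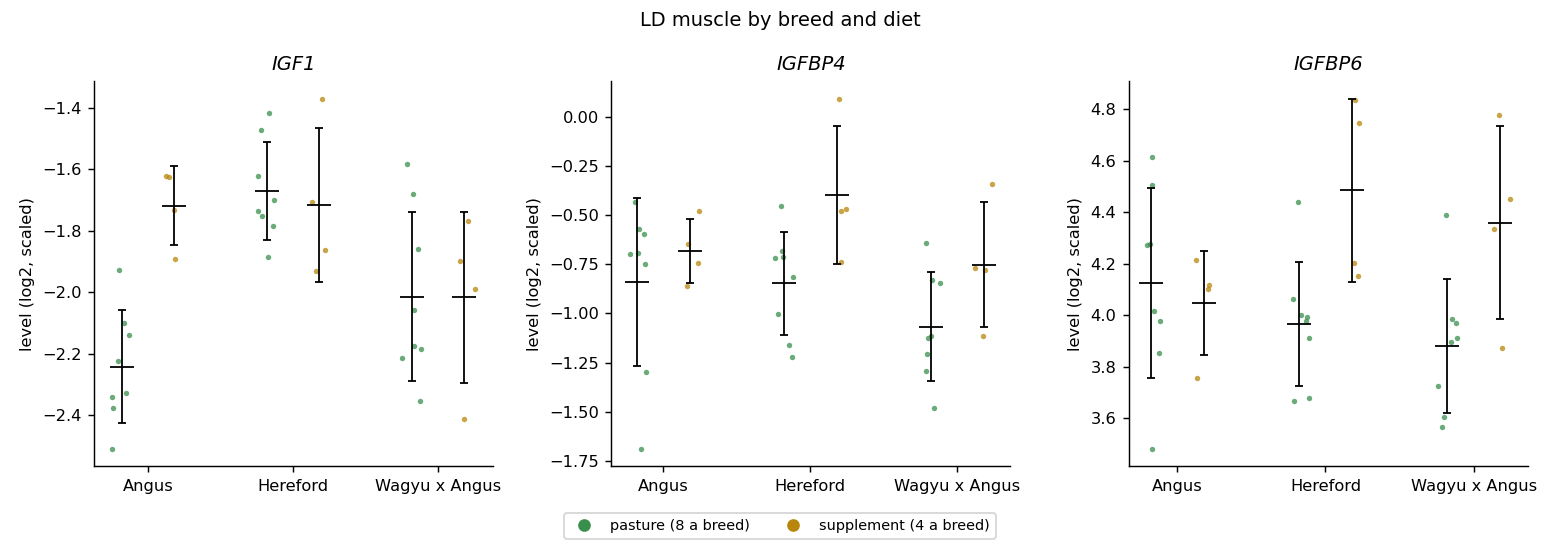
Level of IGF1, IGFBP4 and IGFBP6 in LD (log2 signal minus the 75th percentile of the array) by breed, with pasture in green (8 arrays a breed) and supplement in gold (4 arrays a breed); the long bar is the mean and the whiskers are 1 SD. The diets do not overlap for IGF1 in Angus (means -2.24 on pasture and -1.72 on supplement) and overlap for it in the other breeds.

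Between breeds on pasture 1 of the 9 genes differed in LD, IGF1 (limma moderated F, adjusted p = 0.00774), where 14.7% of probes did. The 8 Hereford arrays lay between -1.88 and -1.42, above the 8 Angus arrays (-2.51 to -1.93) without overlap (1.68% of all probes did not), and the 8 Wagyu x Angus arrays (-2.36 to -1.58) overlapped both. Hereford was above Angus by 0.57 ± 0.11 (adjusted p = 0.00383; 8.78% of probes called), with 0.67 and -0.03 by its other probes and 0.09 in the deposited value table (adjusted p = 0.672), and Wagyu x Angus below Hereford (-0.34 ± 0.11, adjusted p = 0.0454; 10.8% called), a call lost on leaving out any of 14 arrays. This second call was also lost with quantile scaling, centring on the mean, normexp, the value table, all probes, scan day as a block, slide as a random block or the replicate block (adjusted p from 0.0541 to 0.674). Adipocyte markers moved with these values: their summed level ran from 4.42 to 6.30 on the Angus arrays and from 2.27 to 4.46 on the Hereford arrays. Among Wagyu x Angus arrays it ran from 5.12 to 6.57 on slide 20, where IGF1 lay between -2.36 and -2.18, and from 2.49 to 3.67 on slides 13 and 14, where IGF1 lay between -2.06 and -1.58. Their part was not tested. Most LD slides held a single breed, and with slide as a random block the IGF1 call was lost (adjusted p = 0.406), as was that of every probe called before, though Hereford against Angus stayed at 0.53 for IGF1. IGFBP3 missed the threshold of the F test (adjusted p = 0.0505) but passed without Wagyu x Angus, slide 20 position 1 (0.0124), or 1 of 3 Angus arrays on slide 23, positions 1, 3 and 4 (0.0328, 0.0435 and 0.0474). With scan day as a block IGFBP7 passed that test too (adjusted p = 0.0271). Wagyu x Angus was then above Angus by 0.68 (adjusted p = 0.0468), against 0.33 without the block.

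Other genes of the pathway were taken from 4 lists, of which only some genes had a tested probe with a name. Of ligands, receptors and carriers (4 of 7 with a probe, INSR not among them), IGF2, the fetal and paracrine growth factor, was highest in SC. It lay between 6.80 and 7.46 in SC and between 4.88 and 6.05 in LD on pasture, a difference of -1.60 ± 0.11 (limma adjusted p = 1.11e-15), and it was lower in IMF (-0.57), Inter (-0.98), Kid (-0.81) and Omen (-0.60), all past the threshold. In LD IGF2 differed by 0.42 ± 0.09 between supplement and pasture (adjusted p = 0.0031), a call lost with slide as a random block (0.442). IGF2R, which clears IGF2, was higher in LD than in SC (0.66 ± 0.07, adjusted p = 4.64e-11) and lower in each of the other depots (-0.21 to -0.43). IGFALS, which holds IGF and IGFBP3 together in blood, was higher in IMF (0.86) and LD (0.95) than in SC, both past the threshold. IGFBP1 was well above background on 12 of 12 IMF arrays but on only 8 of 12 SC, 9 of 12 Inter, 5 of 12 Omen, 3 of 12 Kid and 10 of 24 LD arrays on pasture.

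Of the proteases of binding proteins and their inhibitors, STC1 and ADAM12 had a probe (2 of 7), and PAPPA did not. STC1, an inhibitor of PAPPA, was higher than SC in Omen (2.47 ± 0.24, limma adjusted p = 1.94e-08), Inter (1.45), Kid (1.23) and IMF (0.86), and lower in LD (-1.95), all past the threshold. ADAM12, a protease of IGFBP3 and IGFBP5, was lower in IMF (-2.22), Inter (-1.18) and LD (-3.25, with 16 of 24 LD arrays above background).

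In growth hormone receptor signalling 7 of 9 genes had a probe. Between IMF and SC 1 was higher and 4 lower (median difference -0.21), beside 64.2% of all probes called, and between LD and SC 3 were higher and 3 lower (median -0.01), beside 82.9%. STAT5B, which carries the GHR signal to the nucleus, was higher in IMF (1.77) and LD (3.28), and the feedback inhibitors SOCS1 (-1.50 and -2.63) and SOCS2 (-1.08 and -2.20) were lower in both. CISH, another feedback inhibitor, was higher in LD (2.39). In Omen 4 were higher and 1 lower (median 0.62), beside 45.7% of probes called, with CISH at 1.17 and SOCS3 at 1.04. Each value named here was past the threshold.

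In signalling downstream of IGF1R and the insulin receptor 8 of 16 genes had a probe. Between IMF and SC 2 were higher and 5 lower (median difference -0.36), and between LD and SC 2 were higher and 4 lower (median -0.34), against the same shares of all probes. The higher genes were the same in both, GRB10 (1.81 and 3.43) and GRB14 (3.60 and 2.05), adaptors that bind the activated receptors and dampen them; for GRB14 6 of 12 SC arrays were above background. Among the genes lower in both was PIK3R1 (-0.94 and -1.25), a regulatory subunit of PI3-kinase. Between breeds of fat, 1 of the 21 genes of the 4 lists with a probe passed (4.76%, beside 3.2% of all probes), STAT5A (limma adjusted p = 0.0399).

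The genes most like each gene of the axis were sought over the 60 fat arrays among 10346 named genes, by Pearson r, as a description. IGF1R was followed most closely by GPR182 (r = 0.93), TMPRSS2 and SLC39A11, and within depots, with depot means removed, the first of these stood at 0.75. IGFBP6 was followed by GLT8D2 (0.89), SNTB2 and PFKP, IGFBP4 by DDR1 (0.88), TM9SF4 and TXNDC12, and IGFBP5 by S100A5 (0.84), ZNF503 and PRSS23. GHR ran with PDE3B (0.79), the phosphodiesterase through which insulin restrains lipolysis, ADIPOR2, a receptor of adiponectin, and STRBP, and kept nearly the same r within depots (0.79 for PDE3B). IGFBP3 was closest to ARGLU1 (0.76), DNASE1 and LRFN3, but within depots these r fell to between 0.15 and 0.37. IGFBP2 ran with SNAP25 (0.68), MISP and UPK3B, a mesothelial gene, IGF1 with PCOLCE (0.61), a procollagen processing protein, TMEM59L and NMI, and IGFBP7 with CCL14 (0.56), CHRNA7 and CERK.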

How the data were processed

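Total RNA of 96 samples was hybridised to one colour arrays, 4 to a slide on 24 slides and scanned on 3 days. The deposited scanner output gives a background-subtracted processed signal intensity for each spot, and the deposited value table held log2 of median intensity less background median with a floor of 1 (all 3285792 values within 1e-04), not scaled between arrays. The methods' own normalisation is given by citation and was not repeated; aligners and callers do not apply, and scanner software settings beyond the headers are not given in the sources used here.

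Levels were log2 of processed signal minus the 75th percentile of each array. Outlier spots (9361) were dropped, spots of a probe averaged, and the 34227 of 43653 probes in the value table tested, 62.7% of them named. Each gene was described by its brightest tested probe, and all 9 genes are named. The genes and lists were chosen with earlier results of these data known. Moderated tests were run in R 4.3.3 with limma 3.58.1, and with statmod 1.5.0 for random blocks. Files were read by data.table (version 1.17.8). Adjustment was by Benjamini-Hochberg across the tested probes, with 0.05 as the threshold, and the tests were checked on simulated data. Breed, depot or diet entered as covariates where stated. A processed signal carries no count, so the number of arrays limits the precision. Replicate numbers equal slide positions on all 96 arrays, and 13 of 60 correlations of same-numbered deviations exceeded 0.1, so they were not used as pairs. A probe that the study's tables and the scanner output name differently (IGFBP7 or STX12) was left out. Figures were drawn with Python 3.11.15 and matplotlib 3.10.9. Alternatives were other scaling, background correction, probe sets, blocks, single breeds and left-out arrays.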

Additional observations from a re-analysis of the deposited data

Results flagged for a closer look

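An array stood apart from the others of its breed and tissue in 16 of 189 groups tested (8.47%), where chance gives about 1 in 20. The arrays apart had IGF1 levels of 0.41 in Angus Inter, -1.92 in Wagyu x Angus Inter, -0.66 in Hereford Inter and 0.36 in Angus SC. IGF1R stood apart in 1 Angus IMF array at -2.66. GHR did so at 2.29 in Angus Kid, 1.99 in Angus IMF, 2.34 in Wagyu x Angus SC and 2.53 in Angus SC. Among the binding proteins the arrays apart were IGFBP2 at -4.62 in Wagyu x Angus Inter, IGFBP3 at 4.43 in Wagyu x Angus Omen and at 3.15 in Wagyu x Angus LD on pasture, and IGFBP4 at 2.96 in Hereford SC. IGFBP6 was apart at 3.69 in Angus Inter, 4.54 in Wagyu x Angus IMF and 6.79 in Wagyu x Angus SC.

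The second IGFBP6 probe had a diet difference in LD that depended on breed (limma interaction, adjusted p = 0.00853), with supplement minus pasture at -0.29 in Angus steers but 0.66 for Wagyu x Angus and 0.79 for Hereford. The main IGFBP6 probe gave an adjusted p of 0.156 for the same test.

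Probes outside the value table also gave signal on SC arrays. Both IGFBP3 probes of this kind had SC means of 3.46 and 3.02, above their LD means of -0.19 and -0.66 on pasture. The IGFBP2 probe had an SC mean of -3.20 and the IGFBP4 probe one of 5.21.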

How the results depend on the processing

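The counts below are of the 9 genes past the threshold. Against SC, IMF had 8, and 4 in the deposited value table, 3 with scan day as a block, 5 with scan day as a block on all 96 arrays, 5 within Hereford and 4 within Wagyu x Angus. Inter had 4, and 7 in the value table and 2 within Wagyu x Angus. Kid had 5, and 1 within Hereford and 3 within Wagyu x Angus. Omen had 3, and 9 in the value table and 1 with scan day as a block. Breeds in fat had 3, and 0 within each of the 5 depots. Supplement against pasture had 0, and 1 in the value table and 1 within Angus alone, and 0 to 1 on leaving out single arrays. Its dependence on breed had 0, and 1 with quantile scaling, 1 centred on the mean, 3 with scan day as a block and 0 to 2 on leaving out single arrays. Breeds in LD had 1, and 2 with normexp, 2 with scan day as a block, 0 with slide as a random block and 1 to 2 on leaving out single arrays. Neighbouring tissues in the order of means had 12 of 45 steps, and 26 in the value table. On leaving out single arrays the other counts ran from 7 to 8 for IMF, 3 to 5 for Inter, 4 to 5 for Kid and 3 to 4 for Omen against SC, stayed at 9 for LD against SC and 8 for IMF against LD, and ran from 6 to 7 for depots and 2 to 3 for breeds of fat. The replicate block gave the same counts (8, 4, 5, 3, 9 and 8 for the tissues, 6, 3 and 0 in fat, 0, 0 and 1 in LD, and 12 neighbouring steps), though it ended the IGF1 call of Wagyu x Angus against Hereford in LD (adjusted p = 0.0835). Without 4 depot arrays with myofibre signal, an alternative chosen after seeing the data, Inter had 3, Kid 4 and the depots 6. Leaving out the Kid array that stood apart and the slide block for IGF2 were also chosen after seeing the data.

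Among genes past the threshold in either setting, directions turned mainly in the value table, which is not scaled between arrays and whose median probe shifted against SC by 0.63 in IMF, 0.98 in Inter, 0.83 in Kid, 0.82 in Omen and -0.03 in LD. There IMF gave GHR 0.10, IGF1 0.19, IGFBP2 0.05 and IGFBP7 0.48, Inter gave IGF1 0.80, IGF1R 0.77, IGFBP2 0.61, IGFBP4 0.37 and IGFBP7 0.88, Kid gave GHR 0.92, IGF1 0.46, IGF1R 0.82 and IGFBP7 0.89, Omen gave IGF1 0.66, IGF1R 0.89, IGFBP2 0.78 and IGFBP4 0.49, and IMF against LD gave IGFBP5 0.20. Of genes not past the threshold in either, IGFBP2 in Kid (0.44) and IGFBP6 in Inter (0.47) turned too, and so did others in the breed contrasts of LD. Relative to that shift the called genes kept their sign in each of these comparisons. Elsewhere IGFBP2 turned to 0.17 in IMF against SC with scan day as a block and to -0.41 in IMF against LD with normexp, IGF1R to 0.25 in Inter with scan day as a block on all 96 arrays, and IGF1 to 0.07 in Kid by its second probe. Among all probes called against SC the share that was higher was 48.6% for IMF, 44.2% for Inter, 46.6% for Kid and 44.9% for Omen, but 92%, 99.6%, 98.4% and 99% in the value table and 26.4%, 19.2%, 20.1% and 16.4% with normexp. Scan day as a block left 6847 of 21957 probes called for IMF and 1511 of 15654 for Omen, and slide as a random block left 1 of 3850 for diet and 0 of 5044 for breeds in LD. The cause of these changes was not tested.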
